A study of Homo sapiens with 28 samples.

Results

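FCGR2A, FCGR2B, FCGR3A and FCGR3B are 4 low-affinity Fc gamma receptor genes that lie together on chromosome band 1q23. They were taken as the named genes of the stretch from 161.4 to 161.7 Mb of chromosome 1 in GRCh38, an interval of 300 kb that was described with its intergenic parts in 12 deposited peak lists. They are 4 of the 47 annotated genes of the interval, of which 5 are protein-coding and 31 are tRNA genes, and 4 of the 18621 protein-coding genes of at least 2 kb in the genome. The members were chosen by the cover of these same H3K36me2 and H3K27me3 lists, so the levels and differences below are a description of it and no test was run on them.

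The lists come from ChIPmentation, a chromatin immunoprecipitation in which a transposase adds the sequencing adapters on the precipitated chromatin. The cells are TKO, labelled as a plasma cell line of the genotype KMS-11 WHSC1(+/-). KMS-11 is a multiple myeloma line, and WHSC1 is an older name of NSD2, the methyltransferase that places H3K36me2. The TKO cells, which are the shared background of every condition, were used without an added NSD2 form (TKO) or while expressing wild type NSD2 (WT) or NSD2 carrying D1240A or F1295A, and the series asks how mutant NSD2 may alter chromatin marks. H3K36me2, H3K27me3 and H3K27ac were measured with 2 replicates per condition and mark. Every list was called on both replicates pooled, so a condition has 1 value per mark, with no replicate error. How NSD2 was introduced, and whether the cells are 1 clone, is not given in the sources used here. All conditions are 1 cell line, in which a mark carried by fewer cells and a weaker mark in every cell cannot be told apart.

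Fc gamma receptors bind the constant part of IgG and tell an immune cell that an antibody has found its target. FCGR2A and FCGR3A encode activating receptors of phagocytes and, for FCGR3A, of natural killer cells; FCGR3B encodes a lipid-anchored receptor of neutrophils, and FCGR2B is the inhibitory receptor through which IgG restrains B cells and plasma cells. The genes arose by duplication, and FCGR2C, a fusion of FCGR2A-like and FCGR2B-like sequence, lies between them. H3K36me2 spreads over transcribed and intergenic chromatin and is known to oppose H3K27me3, the repressive mark of the Polycomb enzymes EZH1 and EZH2, while H3K27ac marks active promoters and enhancers.

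After duplicates were dropped, an H3K36me2 list kept 62550152 to 69211726 fragments. An H3K27me3 list kept 31097592 to 44812488, and one of H3K27ac 67939521 to 73613753. The lowest peak of a list had 10 to 14 fragments at its summit. By H3K27ac within 1 kb of a gene end, 6 of 8 plasma cell markers carried a peak in each condition, with SDC1 and CD38 listed at 0. The same count was 1 of 6 for B cell markers, 1 or 2 of 6 for NK cell markers, 1 of 6 for markers of monocytes and macrophages and 2 of 6 for neutrophil markers. The one B cell marker was CR2 in TKO and WT, at fold enrichments of 2.40 and 2.72, and CD79A in D1240A and F1295A, at 3.21 and 15.1. The others with a peak in each condition were NCR1 of NK cells (30.5 to 44.8), FCGR1A of monocytes (7.15 to 10.9), and CSF3R (16.6 to 22.0) and S100A8 (3.02 to 3.93) of neutrophils, with GNLY of NK cells (3.37) in D1240A alone. MS4A1, NCAM1, CD14 and ELANE were listed at 0 in each condition.

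The duplicated sequence bears on how every value here can be read. The pairs HSPA6 and HSPA7, FCGR3A and FCGR3B, and FCGR2C and the inner part of FCGR2B repeat at steps of 81.632 kb, 81.437 kb and 81.804 kb. The first copy was taken from the start of HSPA6 to the end of FCGR2C (161524540 to 161601220) and the second as the span at matching distances (161606172 to 161683024). A fragment that matches both copies equally well can be placed on either, and how such fragments were treated is not given in the sources used here. RefSeq promoter windows of GRCh38.p14, from 250 bases before a start site to 50 bases after it, show how close the copies are. The FCGR3A window at chr1:161549769-161550068 and the FCGR3B window at chr1:161631127-161631426, both on the minus strand, are the most alike pair among the start sites of these genes, and capitals mark the bases that differ between them.
FCGR3A: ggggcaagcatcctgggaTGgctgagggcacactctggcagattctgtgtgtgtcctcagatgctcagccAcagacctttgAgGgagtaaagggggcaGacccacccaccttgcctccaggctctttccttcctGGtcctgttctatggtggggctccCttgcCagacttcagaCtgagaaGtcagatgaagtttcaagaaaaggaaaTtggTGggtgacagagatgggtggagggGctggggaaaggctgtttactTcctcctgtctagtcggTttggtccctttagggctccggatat
FCGR3B: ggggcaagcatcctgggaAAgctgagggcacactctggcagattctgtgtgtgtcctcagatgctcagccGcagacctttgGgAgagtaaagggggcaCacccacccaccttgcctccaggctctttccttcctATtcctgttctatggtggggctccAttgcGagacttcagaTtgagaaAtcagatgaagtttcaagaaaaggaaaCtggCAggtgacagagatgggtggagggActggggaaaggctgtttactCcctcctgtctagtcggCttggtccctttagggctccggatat
They share 282 of 300 bases (94%), and the longest stretch without a difference is 50 bases. Of the 12 lists, WT H3K27me3 alone had a peak over the FCGR3A window, and none had one over the FCGR3B window.

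The promoters of FCGR2A and of the inner start of FCGR2B are shown because they lie at the ends of the cluster and drive receptors of opposite sign. FCGR2A is at chr1:161505207-161505506 and FCGR2B at chr1:161662893-161663192, both on the plus strand. Capitals mark GAGGAA or its reverse complement TTCCTC, a sequence with the core that ETS factors such as PU.1 bind.
FCGR2A: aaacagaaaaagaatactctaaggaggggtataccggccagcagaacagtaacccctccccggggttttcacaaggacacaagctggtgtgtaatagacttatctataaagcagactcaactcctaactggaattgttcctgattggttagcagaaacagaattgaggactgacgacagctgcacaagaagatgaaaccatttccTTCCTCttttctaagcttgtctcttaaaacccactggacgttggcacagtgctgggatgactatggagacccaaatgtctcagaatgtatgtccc
FCGR2B: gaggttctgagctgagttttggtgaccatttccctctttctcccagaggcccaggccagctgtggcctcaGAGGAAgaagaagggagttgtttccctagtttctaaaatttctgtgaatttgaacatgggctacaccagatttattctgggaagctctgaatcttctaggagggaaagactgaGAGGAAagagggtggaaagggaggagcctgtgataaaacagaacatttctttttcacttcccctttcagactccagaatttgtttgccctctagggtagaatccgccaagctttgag
The longest run these windows share is 9 bases. The 6-base word was in 3 of the 11 promoter windows of the 4 genes (27.3%) and in 27.9% of all 35116 windows. Over the FCGR2A window H3K27me3 peaks lay in TKO and F1295A and no H3K36me2 or H3K27ac peak in any list. Over the FCGR2B window H3K36me2 peaks lay in WT and D1240A, H3K27me3 peaks in TKO and F1295A, and H3K27ac peaks in TKO, D1240A and F1295A.

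Across the interval, H3K27me3 peaks covered more bases than H3K36me2 peaks in TKO, WT and D1240A, and fewer in F1295A. Cover is the percent of bases under peaks, with peaks less than 1 kb apart joined. For H3K36me2 it was 25.9% in TKO and 26.0% in WT, and 26.8% in D1240A and 36.3% in F1295A. For H3K27me3 it was 42.1% in TKO against 40.4% in WT, with 33.9% in D1240A and 31.4% in F1295A. H3K36me2 minus H3K27me3 was thus -16.3 points in TKO and -14.3 in WT, and -7.13 in D1240A and 4.96 in F1295A. The sign in F1295A turned to -5.31 when only peaks with a -log10 q of at least 5 were used and to -1.59 when lists were reduced to equal covered length, while the other 3 conditions kept theirs in each setting tried.

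The genome as a whole had more H3K36me2 than H3K27me3 cover in each condition, opposite to the interval in TKO, WT and D1240A but not in F1295A. The difference was 0.147 points in WT, 0.679 in D1240A and 1.34 in F1295A, with TKO between the mutants. The neighbours of the interval also had more H3K36me2 than H3K27me3 in each condition. Over the 300 kb before it, H3K36me2 covered 44.6% to 68.0% and H3K27me3 14.7% to 27.1%, and over the 300 kb after it 27.5% to 66.8% and 3.41% to 7.27%. Of 10090 windows of 300 kb over the genome, 2.73% to 3.47% had at least as much H3K36me2 cover as the interval, 2.14% to 2.26% as much H3K27me3 and 2.51% to 2.88% as much H3K27ac. The interval thus lay high for each of the 3 marks, and the lists were called with no input control. Its cover includes the tRNA gene array described below, most of which lay under each mark. The rank of the interval without that array was not computed.

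**Figure D1:**
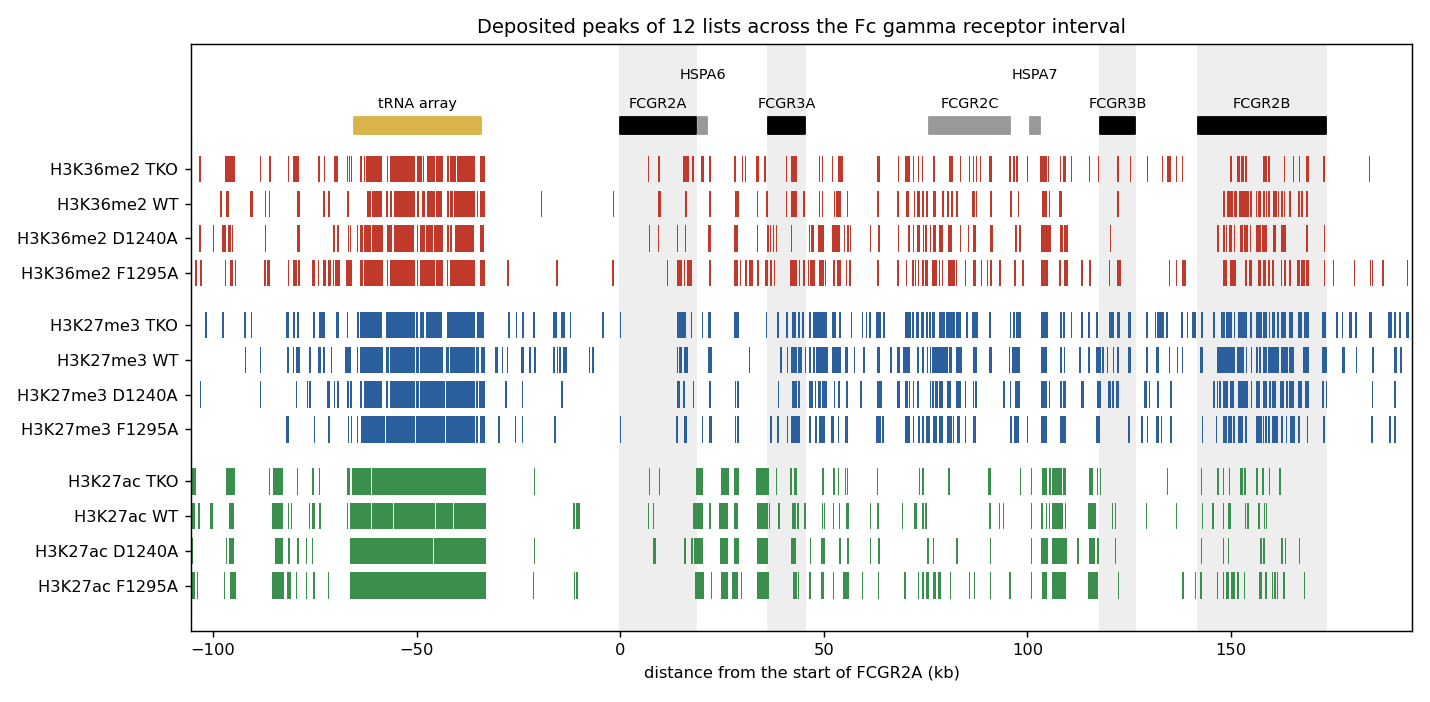
Peaks of the 12 lists (one row each) against the distance from the start of FCGR2A in kb. Black bars and grey columns are the 4 receptor genes, grey bars FCGR2C, HSPA6 and HSPA7, and the yellow bar the tRNA genes, which are covered in every list; FCGR2B is dense in short H3K27me3 and H3K36me2 peaks and FCGR2A is not.

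FCGR2B, the inhibitory receptor gene, held the most H3K27me3 of the 4 genes in each condition, and in WT and D1240A also the most H3K36me2. The gene spans 31.412 kb (161647243 to 161678654). H3K27me3 peaks covered 70.7% of it in TKO and 67.0% in WT, and 71.6% in D1240A and 58.6% in F1295A. H3K36me2 cover was 21.8% in TKO and 60.5% in WT, and 38.2% in D1240A and 45.4% in F1295A. TKO was lowest and WT highest for H3K36me2, with the mutants between them, while H3K27me3 lay between 58.6% and 71.6%.

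A gene was called higher or lower where cover differed by at least 25 points, a limit with no error behind it. For H3K36me2 in WT against TKO, 1 of 4 members was higher, FCGR2B at 38.7 points, where 0.166% of all genes were higher, 2.49% lower and 2.65% either. In D1240A against WT none of the 4 passed (1.02% of genes did in either direction), and FCGR2B fell short of the limit at -22.2 points. In F1295A against WT none passed (2.24% of genes did), with FCGR2B at -15.1 and FCGR3A at 24.3 points. Over all genes the median difference was 0 in each of these comparisons, and over the 4 members it was 0.42, -2.59 and 12.6 points. All 3 comparisons use WT, so their values are not independent.

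The FCGR2B call depends on the joining of peaks. Without joining, H3K36me2 covered 18.9% of FCGR2B in TKO and 34.7% in WT, and 30.2% in D1240A and 32.5% in F1295A, and the difference of WT and TKO was 15.8 points. With a -log10 q of at least 5 it was 20.3 points. TKO stayed lowest and WT highest without joining. The number of H3K36me2 peaks in the gene was 11 in TKO against 19 in WT, with 14 in D1240A and 15 in F1295A, and the highest of all, in F1295A, had 32 fragments (exact Poisson 95% interval 21.9 to 45.2).

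FCGR2B has an outer start site at 161647243 and an inner one at 161663143, from which it pairs with FCGR2C. Both sides of the inner start lie within the second copy as taken above. With peaks joined, H3K36me2 covered 19.6% before the inner start and 24.1% after it in TKO, and 60.8% and 60.1% in WT. It covered 49.2% before and 27.0% after in D1240A, and 35.6% and 55.4% in F1295A. Without joining, the values before and after were 16.1% and 21.7% in TKO, 39.1% and 30.2% in WT, 33.3% and 27.0% in D1240A, and 26.6% and 38.6% in F1295A. WT and D1240A were then higher before the inner start, and TKO and F1295A after it. From the inner start alone, D1240A against WT was -33.1 points with peaks joined, past the limit, but 27.0% against 30.2% without joining, so the call rests on joining. With peaks joined, H3K27me3 was spread over both sides in each condition, with 50.6% to 70.4% before and 64.8% to 72.7% after the inner start.

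FCGR2A, the activating receptor gene at the other end of the cluster, carried less of either mark than FCGR2B and FCGR3A in each condition. It spans 18.592 kb (161505457 to 161524048). Over all genes of at least 2 kb, mean cover was 2.17% to 4.57% for H3K36me2 and 1.47% to 2.01% for H3K27me3, with medians of 0. H3K36me2 covered 5.25% of FCGR2A in WT and 19.2% in TKO, and 6.65% in D1240A and 20.8% in F1295A. TKO and F1295A were thus the higher pair and WT and D1240A the lower, but with 2 to 4 peaks per list. The place of TKO depends on the processing. At equal covered length it was at 2.74%, below WT at 5.25%, and with a -log10 q of at least 5 at 2.74% against 2.59% in WT. H3K27me3 covered 16.2% in TKO and 15.6% in WT, and 11.4% in D1240A and 7.63% in F1295A, the lowest level being that of F1295A. The highest peak in FCGR2A was 29 fragments for H3K36me2 (19.4 to 41.6, TKO) and 25 for H3K27me3 (16.2 to 36.9, TKO).

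FCGR3A, which encodes the receptor of natural killer cells, had its highest H3K36me2 cover in F1295A and its lowest H3K27me3 cover in D1240A. The gene spans 8.979 kb (161541759 to 161550737). H3K36me2 covered 29.8% in TKO against 33.9% in WT, with 29.0% in D1240A and 58.1% in F1295A. TKO, WT and D1240A lay close together and F1295A above them, but this order depends on the processing. F1295A against WT, 24.3 points as reported, was 8.80 points with a common minimum fold enrichment and 7.53 with peaks joined across 3 kb, and it reversed to -9.03 points (24.9% against 33.9%) at equal covered length. H3K27me3 covered 56.0% in WT and 40.2% in TKO, and 26.7% in D1240A and 45.0% in F1295A.

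FCGR3B, the neutrophil gene, is nearly the same length at 8.768 kb (161623196 to 161631963) but held far less H3K36me2. Its H3K36me2 cover was 7.36% in TKO and 4.08% in WT, and 3.78% in D1240A and 13.7% in F1295A, from 1 or 2 peaks a list. Its H3K27me3 cover was 36.5% in TKO against 49.1% in WT, with 32.6% in D1240A and 6.82% in F1295A, where a single peak of 15 fragments remained. F1295A was thus the highest list for H3K36me2 and the lowest for H3K27me3. With a -log10 q of at least 5, however, TKO was the lowest for H3K27me3, at 0% against 6.82% in F1295A.

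For H3K27me3, none of the 4 members passed the limit in WT against TKO (0.489% of genes did in either direction), with a range from -3.68 to 15.8 points. In D1240A against WT, 1 was lower, FCGR3A at -29.3 points, where 0.639% of genes were lower and 0.677% passed in either direction. In F1295A against WT, 1 was lower, FCGR3B at -42.2 points, where 0.499% of genes were lower and 0.559% passed in either direction. All 4 members were below WT in F1295A, by up to 42.2 points, and the H3K27me3 list of F1295A rests on 31097592 fragments against 44812488 in WT. At equal covered length only FCGR3B stayed below WT in F1295A, at -7.20 points, while FCGR2A was at 1.42, FCGR2B at 0.914 and FCGR3A at 14.7 points. FCGR3A in D1240A was then at -3.63 points. The part of the gap in depth in the differences was not tested beyond that setting. Without joining of peaks FCGR3B in F1295A was at -20.2 and FCGR3A in D1240A at -13.8 points, so neither call holds there, and with peaks joined across 3 kb FCGR3A in D1240A turned to 4.38 points.

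**Figure D2:**
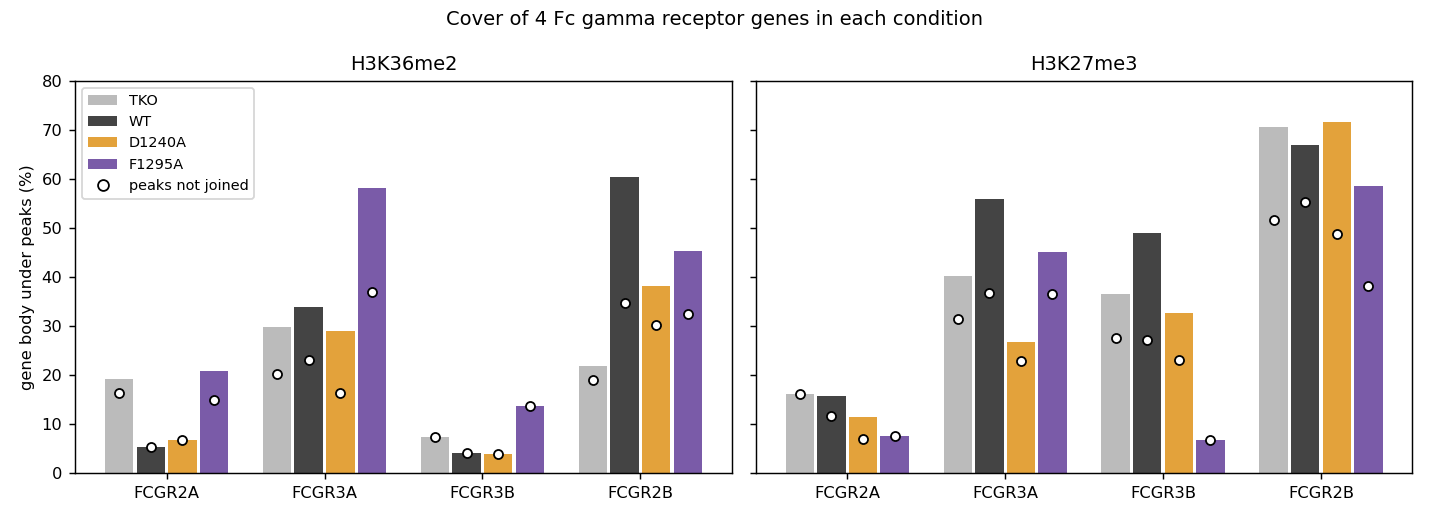
Percent of each gene body under H3K36me2 (left) and H3K27me3 peaks (right) in 4 conditions; bars have peaks less than 1 kb apart joined, open circles do not. There is 1 pooled list per bar and no error bar; FCGR2B is the most covered gene for H3K27me3, and the circles of FCGR2B for H3K36me2 differ less between TKO and WT than the bars.

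In much of the interval the marks lay over the same bases, seen in a population of cells. Bases under both H3K36me2 and H3K27me3 made up 20.3% of the interval in TKO and 21.8% in WT, and 20.9% in D1240A and 22.2% in F1295A. This share varied by less than 2 points between conditions, whereas bases under H3K27me3 alone went from 21.9% in TKO to 9.19% in F1295A and bases under H3K36me2 alone from 5.62% to 14.1%. Of the H3K36me2 bases, 78.3%, 83.8%, 78.2% and 61.1% were also under H3K27me3 in TKO, WT, D1240A and F1295A. Over the genome the share was 49.9%, 72.2%, 57.4% and 46.0%. The tRNA gene array before FCGR2A held 26.0 of the 60.8 kb under both marks in TKO and 28.2 of 66.6 kb in F1295A. From FCGR2A to FCGR2B, which leaves the array out, the share was 72.0%, 82.3%, 72.3% and 57.6% in the same order. From the interval start to the array it was 45.1%, 32.2%, 36.5% and 13.4%.

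Among the genes, and with peaks joined, FCGR2B and FCGR3A had at least 20% of their body under each mark in every condition, against 1.36% to 1.72% of all genes. Without joining, H3K36me2 covered 18.9% of FCGR2B in TKO and 16.3% of FCGR3A in D1240A, so this does not hold there. In FCGR2B the doubly covered share was 53.4% in WT and 21.0% in TKO, and 38.2% in D1240A and 35.7% in F1295A. In D1240A it equalled all of the H3K36me2 cover of the gene, and without joining 83.2% of it. The doubly covered share without joining was 26.3% in WT and 16.8% in TKO, and 25.1% in D1240A and 19.9% in F1295A. In FCGR3A, with peaks joined, the share was 17.4% in TKO and 32.7% in WT, and 2.24% in D1240A and 29.1% in F1295A. D1240A was the lowest with and without joining, and its H3K36me2 (26.8% alone) and H3K27me3 (24.5% alone) lay over different bases of FCGR3A.

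FCGR3B had 7.36% of its bases under both marks in TKO, 4.08% in WT and 3.78% in D1240A. These are all of its H3K36me2 bases there. In F1295A none of its bases were under both. FCGR2A had 6.13%, 2.59%, 1.45% and 5.24% in TKO, WT, D1240A and F1295A. Stretches present in all 8 H3K36me2 and H3K27me3 lists were found in FCGR2B (5 stretches, 1308 bases) and FCGR3A (1 stretch of 127 bases, 161547629 to 161547755), and none in FCGR2A or FCGR3B. FCGR2C held 4 such stretches of 748 bases.

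**Figure D3:**
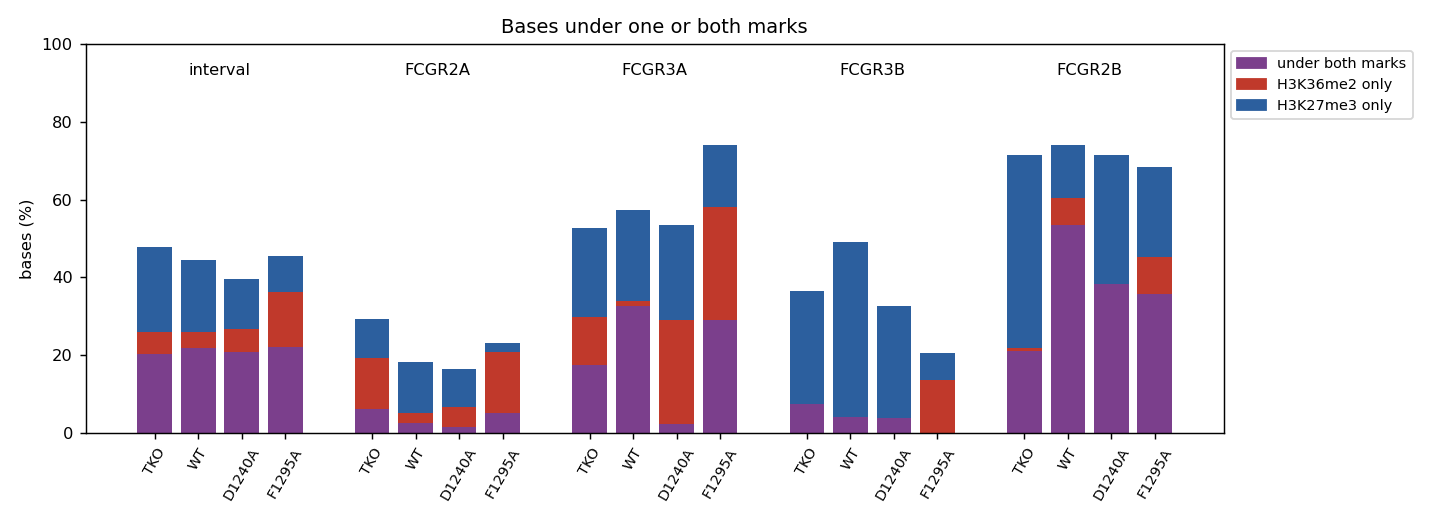
Percent of bases under both marks (purple), H3K36me2 alone (red) and H3K27me3 alone (blue) in the interval and in each gene, for TKO, WT, D1240A and F1295A. The purple part of the interval stays between 20.3% and 22.2%, while that of FCGR3A drops to 2.24% in D1240A.

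The duplicated partners did not carry the same peaks. Bins of 100 bases were matched by their distance from the lowest coordinate of each gene and kept where they lay inside both genes. For FCGR3A and FCGR3B that is the downstream end, at a step of 81437 bases, while their most alike start windows stand 81358 bases apart. Bins near those starts may thus be out of register, which bears on the shares of matching bins. Over the 87 bins inside both genes, H3K36me2 peaks, not joined, lay over 21.8% of the bins of FCGR3A and 6.90% of those of FCGR3B in TKO. The values were 20.7% and 4.60% in WT, 16.1% and 3.45% in D1240A, and 34.5% and 13.8% in F1295A. FCGR3A was the higher copy in each condition. For H3K27me3 the copies differed by 3.45 points in TKO, 10.3 in WT and 1.15 in D1240A, and stood at 37.9% for FCGR3A and 6.90% for FCGR3B in F1295A.

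FCGR2C and the part of FCGR2B from its inner start lay closer for H3K36me2. Over 155 bins inside both, it lay over 23.9% of the bins of FCGR2C and 20.6% of those of FCGR2B in TKO, 28.4% and 31.0% in WT, 32.3% and 26.5% in D1240A, and 38.7% and 39.4% in F1295A. For H3K27me3 they were 54.2% and 52.9%, 51.6% and 56.1%, 36.8% and 49.0%, and 35.5% and 38.7% in the same order, with the widest gap in D1240A. FCGR2C is the longer annotated gene, at 19882 bases against 15512 for FCGR2B from its inner start. Over these whole bodies, H3K36me2 covered 22.1% and 30.2% in WT and 32.0% and 38.6% in F1295A, without joining. The H3K27me3 bins of FCGR2C were also covered in FCGR2B for 71.4% to 84.2%, and those of FCGR2B in FCGR2C for 63.2% to 75.9%. Of the H3K27me3 bins of FCGR3A, 18.2% to 33.3% were also covered in FCGR3B. Of those of FCGR3B, 37.5%, 36%, 20% and 100% were covered in FCGR3A in TKO, WT, D1240A and F1295A. In F1295A only 6.90% of the FCGR3B bins were covered, which limits the share in FCGR3A that could match. How far shared sequence sets the likeness was not tested.

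**Figure D4:**
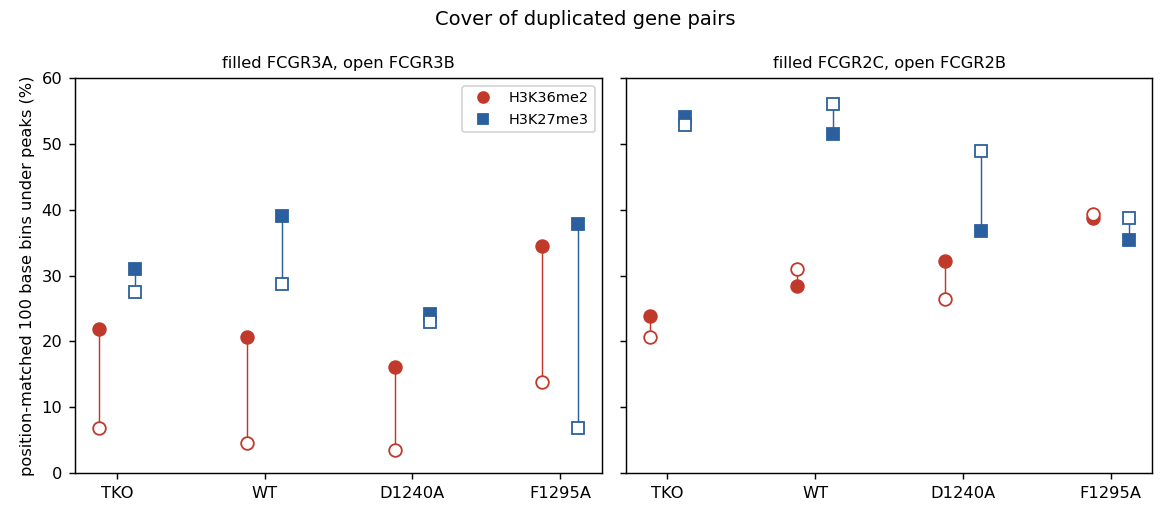
Percent of position-matched 100 base bins under peaks in FCGR3A (filled) and FCGR3B (open), left, and in FCGR2C (filled) and FCGR2B from its inner start (open), right, for H3K36me2 (circles) and H3K27me3 (squares). Only bins inside both genes are used; for H3K36me2 the FCGR3 copies differ by 12.6 to 20.7 points and the FCGR2 copies by at most 5.81 points.

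Between the genes, the balance changed from one gap to the next. From FCGR3A to FCGR2C (30.601 kb) H3K27me3 covered 56.3% in TKO and 53.9% in WT, and 39.6% in D1240A and 43.4% in F1295A. H3K36me2 there covered 26.4% in TKO against 28.1% in WT, with 43.5% in D1240A and 44.5% in F1295A. Both mutants thus lay above TKO and WT for H3K36me2 and below them for H3K27me3 in this gap.

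The gap from FCGR3B to FCGR2B (15.279 kb) had no H3K36me2 peak in WT or D1240A, and 18.3% cover in TKO and 10.0% in F1295A. Its H3K27me3 cover was 14.1% in WT and 41.0% in TKO, and 17.3% in D1240A and 17.0% in F1295A, with TKO apart from the rest. After FCGR2B (21.346 kb) H3K36me2 was again listed at 0 in WT and D1240A, with 1.12% in TKO and 11.3% in F1295A. H3K27me3 covered 34.4% there in TKO and 17.7% in WT, and 4.79% in D1240A and 10.2% in F1295A. The H3K36me2 of FCGR2B in WT was thus bordered on both sides by gaps with no peak.

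On the other side of the cluster, 23 tRNA genes stand in an array of 31.035 kb that repeats at a median step of 7.381 kb. It was covered over 83.7% to 91.0% by H3K36me2, 94.1% to 97.8% by H3K27me3 and 100% by H3K27ac. Of the bases of the interval under peaks of all 12 lists, 19030 lay in the array and 635 outside it, in 4 stretches of which none lay in a receptor gene. Leaving out the array, H3K36me2 minus H3K27me3 of the interval was -16.9 points in TKO and -14.4 in WT, and -7.29 in D1240A and 6.31 in F1295A. The receptor genes' values do not use it.

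Peaks in the receptor genes were low. Their 95 H3K36me2 peaks had 15 to 33 fragments at the summit and fold enrichments of 2.33 to 4.95, and 37 of them had a -log10 q of at least 5. Their 108 H3K27me3 peaks had 11 to 27 fragments and fold enrichments of 2.73 to 6.54, and 64 reached that value. In the array the highest summit of a list had 69 to 94 fragments for H3K36me2 and 70 to 119 for H3K27me3.

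**Figure D5:**
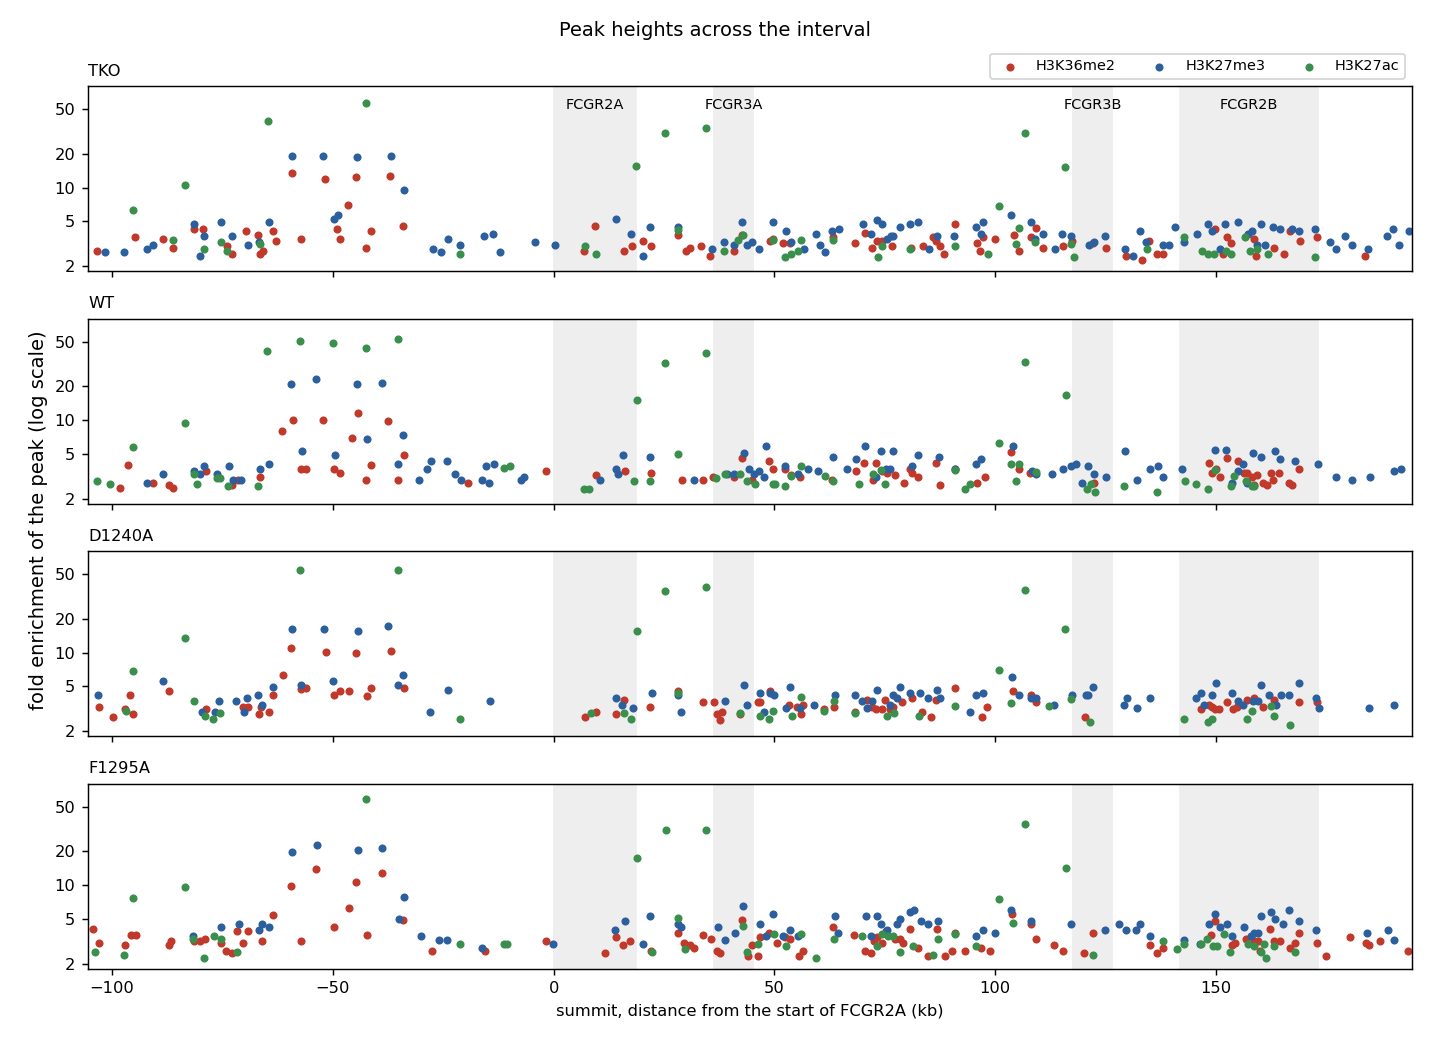
Fold enrichment (log scale) of each peak in the authors' lists against the distance of its summit from the start of FCGR2A in kb, in 4 conditions; grey columns are the receptor genes. Receptor gene peaks of H3K36me2 and H3K27me3 reach at most 6.54, and high H3K27ac peaks stand beside the genes, not at their starts.

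H3K27ac told the ends of these genes apart. A peak lay within 1 kb of either end of 4 of 4 members in each condition, where 58.2% of protein-coding genes had one in TKO and 57.9% in WT, and 59% in D1240A and 58.6% in F1295A. At a listed start site, the count was 1 of 4 in TKO and D1240A (FCGR2B) and 2 of 4 in WT and F1295A (FCGR2B and FCGR3A). The share of all genes with a peak at a start was 59.8% in TKO and 59.8% in WT, and 60.4% in D1240A and 60.3% in F1295A. This split of the ends was added after the values were seen.

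FCGR2A and FCGR3B had no H3K27ac peak at any listed start in any condition. At the starts of FCGR2B the highest summit had 23 fragments in TKO (14.6 to 34.5), and 18 in WT, D1240A and F1295A (10.7 to 28.4). At those of FCGR3A it had 18 in WT and 15 in F1295A (8.40 to 24.7). Their fold enrichments were 2.54 to 3.6, where the median over genes with a peak at a start was 15.6 to 18.6.

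The strong H3K27ac peaks lay at the opposite ends. The peak touching the end of FCGR2A had 104 fragments in TKO and 99 in WT, and 97 in D1240A and 109 in F1295A, and lay over the start of HSPA6, a heat shock gene. The peak at the downstream end of FCGR3A, which is read from the minus strand, had 224, 264, 239 and 193 fragments in the same order. It lay over the tRNA gene TRN-GTT1-1 (161540241 to 161540314) in each condition. In WT and D1240A it ended at 161541740 and 161541666, short of FCGR3A, which begins at 161541759. At the downstream end of FCGR3B the highest peak within 1 kb had 110 fragments in WT and 88 in F1295A, against 20 in TKO and 23 in D1240A. In TKO and D1240A a peak of 100 and 101 fragments lay just beyond that window, ending at 161621643 and 161621978, so the 4 lists differ there in the edge of a peak more than in its height. The copy HSPA7, a pseudogene, had 45, 40, 43 and 46 fragments at its start. The counting intervals of the 4 conditions overlap at HSPA6 and at HSPA7, while at FCGR3A the WT interval (233 to 298) lies above that of F1295A (167 to 222). The pileups are not scaled for depth.

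Of 20 other genes of Fc receptors and their signalling, 1 passed the limit in 1 of the 6 comparisons. Of all genes, 0.489% to 2.65% passed in either direction over these comparisons, and 2.24% for H3K36me2 in F1295A against WT. A single pass among 20 genes is thus not read as a feature of this list. CD247, the zeta chain that FCGR3A uses in natural killer cells, went from 23.7% H3K36me2 cover in WT to 55.5% in F1295A. The other genes of that list named here were chosen after their values were seen. FCER1G, the gamma chain shared by activating Fc receptors, was covered by H3K36me2 over 100% in TKO against 78.4% in WT, with 71.8% in D1240A and 100% in F1295A. Its H3K27me3 cover was 79.3%, 84.1%, 81.6% and 87.7%.

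FCGR1A, the high-affinity receptor gene elsewhere on chromosome 1, likewise had 80.5%, 84.4%, 79.3% and 94.1% H3K36me2 cover and 84.2%, 82.1%, 85.4% and 67.7% H3K27me3 cover. INPP5D and PTPN6, phosphatases that act in inhibitory receptor signalling, had at most 0.93% and 5.71% H3K36me2 cover and no H3K27me3 peak. They carried H3K27ac at a gene end in each condition, at fold enrichments of 15.6 to 19.1 and 33.5 to 39.2. In all, 11 of the 20 carried such a peak in WT and 12 in each other condition, close to the 57.9% to 59% of all protein-coding genes that did.

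By mean absolute difference over the 8 H3K36me2 and H3K27me3 lists, the genes whose cover was most like that of FCGR2B were GOLGA6L26 (5.11 points), GOLGA6L1 (8.25) and CT45A3 (8.35). Those most like FCGR3A were SP7 (5.51), FCRL2 (7.15) and KCNJ9 (7.79). For FCGR2A they were LRRC37A3 (3.19), FCMR (3.40) and MUC4 (3.66), and for FCGR3B PDE1B (5.03), RAB7B (6.50) and PCP4L1 (6.64). FCRL2, an Fc receptor-like gene, had 34.8%, 41.9%, 18.3% and 53.6% H3K36me2 cover in TKO, WT, D1240A and F1295A, and 37.3%, 50.1%, 25.9% and 25.9% H3K27me3 cover.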

How the data were processed

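Per the submitters' processing notes, peaks on GRCh38 involved MACS2 2.2.7.1, Bowtie2 2.4.5, Trimmomatic 0.36 and FastQC 0.11.4. Per the file headers, each of the 12 lists was called by the authors on both replicates pooled, from paired-end fragments at a q value of 0.05, without a control or a local background, and with repeated fragments at a position counted as 1. Of the fragments, 61% to 87% were duplicates, per the file headers. No use was made here of the 4 inputs.

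The deposited pileup is a signal, the fragment count at the summit, not scaled for depth. The deposited fold enrichment is that pileup over a constant background, and the deposited -log10 q values rest on the same background. A gene with no peak is listed at 0, which is no measured absence.

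Cover was computed from deposited peaks joined across gaps under 1 kb, over RefSeq extents (GRCh38.p14). Starts of the genes came from RefSeq promoter windows. No test could be run, as each condition has 1 list per mark. Poisson intervals (95%) cover counting error only. The members, the 20 Fc receptor and signalling genes, the markers and the limit of 25 points were chosen with earlier results of these data known. The genes named were the 4 members, the other genes of the interval and the copies, those of the 20 genes that passed the limit, and the 3 genes most like each member. FCER1G, FCGR1A, INPP5D and PTPN6 fall outside that rule and were chosen after their values were seen. Calls of single genes depend on joining, as stated beside them. Alternatives were no joining, joining under 3 kb, a -log10 q of at least 5, equal covered length, a common minimum fold enrichment, a limit of 50 points, windows of 2.5 kb and the interval outside the duplicated pairs. Added after seeing the data were the interval without the tRNA array, FCGR2B from its inner start, and start sites alone. The steps were tested on simulated data with SciPy 1.17.1, pandas 2.3.3, numpy 2.4.6 and matplotlib 3.10.9 under Python 3.11.15.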

Additional observations from a re-analysis of the deposited data

How the results depend on the processing

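No paired analysis was possible because both replicates of a condition were pooled in each deposited list, which also means that no replicate could be left out. For H3K36me2 in WT against TKO, the 1 member past the limit became 0 without joining of peaks, with a -log10 q of at least 5 and at 50 points, and 3 with joining under 3 kb (FCGR2B higher, FCGR2A and FCGR3B lower). In D1240A against WT the count of 0 became 1 with FCGR2B from its inner start (peaks joined), and in F1295A against WT it became 2 with joining under 3 kb (FCGR2A and FCGR3B higher). For H3K27me3 in WT against TKO, 0 became 1 with joining under 3 kb, where FCGR3A turned from 15.8 to -31.5 points. In both mutants against WT, the 1 member lower for H3K27me3 became 0 without joining, with a -log10 q of at least 5, at equal covered length and at 50 points. With joining under 3 kb the count in D1240A stayed at 1 but named FCGR3B, as FCGR3A turned to 4.38 points. H3K36me2 minus H3K27me3 of the interval moved in WT to -24.0 points with joining under 3 kb and to -5.25 at equal covered length, and reversed in F1295A to -5.31 with a -log10 q of at least 5 and to -1.59 at equal covered length. With start sites alone, members with H3K27ac fell from 4 to 1 in TKO and D1240A and to 2 in WT and F1295A. The causes were not tested. Of 126 recomputed differences of single members, 110 kept their side of the limit, and 100 kept their sign. A change of sign below the limit counts as keeping its side, as for FCGR3A H3K36me2 in F1295A against WT at equal covered length. The low summits, 11 to 33 fragments for the methyl marks in receptor genes against list minimums of 10 to 14, limit what these lists can show.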
